A study of Mus musculus with 113 samples.

Results

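Axon guidance ligands and receptors were followed through neural differentiation of mouse embryonic stem cells. The members are the ephrins (*Efna*, *Efnb*) and their Eph receptors, the semaphorins of classes 3 to 7 with the plexins and neuropilins, the Slits with the Robos, and the netrins with *Unc5* and *Dcc*. They were taken by gene symbol and not by any measured value, though with earlier results of these data known. They number 69 of the 23739 genes listed in any of the 4 deposited tables, 35 of them ligands and 34 receptors. Of them 63 are listed among 13541 genes for SFEB populations, 42 among 11449 for single cells, 62 among 13738 for adherent culture and 69 among 23107 for E14, and 42 are listed in all.

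Growth cones, the moving tips of axons, read guidance cues through these proteins. Ephrins are tethered to membranes and act on Eph receptor kinases by contact, while semaphorins act through plexins, with neuropilins as co-receptors for most class 3 members. Slits repel axons through Robos, netrins attract them through Dcc and repel them through Unc5 receptors, and many of these genes are also used earlier, in cell sorting and vessel growth.

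The study measured mRNA by sequencing while embryonic stem cells became neural, in cell populations and in single cells picked by hand. In the first method R1 cells, passaged once without feeder cells, formed floating aggregates without serum (SFEB), sampled as a series of 14 populations and a parallel series of 8, and 8 single cells were taken at each of the 8 parallel times. In the other method R1 cells were grown as an adherent monoculture, giving 15 samples. In both methods the cells were moved to coated dishes on day 6, the SFEB cells after the aggregates were taken apart and with a change of medium. E14 cells, either WT or *Fyn* KO, were sequenced at days 0 and 4 of neural differentiation with 3 libraries in each of the 4 groups.

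The SFEB series was collected at 0, 1, 2, 8, 22, 34, 42.5, 54.5, 68, 80, 92, 103, 126 and 142 h, and the parallel series at 0, 9, 38, 60, 84, 106, 144 and 216 h. Adherent samples were taken at 0, 2.5, 8.5, 20.5, 35.5, 41.5, 53.5, 68.5, 80.5, 92.5, 101.5, 125.5, 140.5, 144 and 216 h. In each culture 216 h lies after the replating, and whether 144 h, which is day 6 itself, does is not given in the sources used here. The *Fyn* KO is 1 clone, in which a CRISPR deletion removed the initiation codon of *Fyn*, a Src family kinase that relays signals of several guidance receptors. Levels are FPKM, that is fragments scaled to transcript length and library size, and single-cell levels are RPKM, the same for reads. The study states a minimum number of reads for the libraries of its single cells and parallel populations, but the totals of single libraries were not used here. Each time point of an R1 series is 1 library, with 0 h sampled once in each SFEB series, so there are no replicates within a series.

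Marker genes followed the labelled course. In SFEB, 7 pluripotency markers summed to 1041 FPKM in the 0 h population of the first series and to 61.2 at 142 h, with *Pou5f1* the most abundant at the start (385). Epiblast markers went from 48.6 at 0 h to 702 at 42.5 h, of which *Dnmt3b* made up 494. Neural progenitor markers were at 40.5 at 0 h and 969 at 216 h, where *Fabp7* alone stood at 695. Neuron markers were at 181 at 0 h and 1074 at 216 h, where *Tubb3* stood at 511. Adherent pluripotency markers summed to 1229 at 0 h and 147 at 216 h, and adherent neuron markers to 278 and 1069.5. Tested as trends, 7 of 7 pluripotency markers fell and 8 of 8 progenitor and 7 of 9 neuron markers rose in each culture. Of 6 epiblast markers, highest in the middle, limma called 0 in SFEB, with 1 at an unadjusted p below 0.05, and 2 rose in adherent culture.

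The day 0 populations also carried fibroblast transcripts. All 10 fibroblast markers are listed in SFEB, none of them below 0.5 FPKM up to 38 h, and summed to 821 FPKM at 0 h in the first series and 866 in the parallel series, with *Col1a1* at 316 and 292. Their sum was 352 at 8 h, 127 at 22 h, 15.6 at 68 h and 112 at 216 h. In adherent culture it was 352 at 0 h, 132 at 20.5 h and 49.3 at 216 h, whereas the E14 libraries stayed between 3.08 and 14, with 5 to 8 of the 10 markers below 0.5. Of the tested fibroblast markers 10 of 10 fell over time in SFEB and 8 of 10 in adherent culture. Endothelial markers, mostly *Pecam1*, summed to 32.7 at 0 h in the first SFEB series and 3.87 at 216 h, and 4 of the 5 tested fell. The other, *Kdr*, was not called (0.15, limma adjusted p = 0.395). *Pecam1* also fell by day 4 in E14 WT (-1.58, limma adjusted p = 0.0337) and was not called in KO. Whether any of these transcripts came from endothelial cells was not tested. Mesoderm and endoderm markers reached 49.6 at 106 h in SFEB (*T* 27.6) and 67.4 at 144 h in adherent culture (*T* 22.7). Of 6 such markers tested in SFEB 3 rose, of 4 in adherent culture 3 rose, and of the neural crest and glia markers 2 of 3 rose and 1 fell in SFEB while 3 of 4 rose and 1 fell in adherent culture. Fewer cells of a type and less RNA per cell cannot be told apart in such populations.

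Several libraries stood apart. The 2 h SFEB population was below both the 1 h and the 8 h population for 35 of 59 tested members (59.3%) and for 45.4% of 13115 genes. The parallel SFEB series had lower floors for some genes, as for *Slit1*, at 0 FPKM in its libraries up to 84 h against 2.13 to 2.81 FPKM in the first series up to 92 h. Both series come from 1 table that the authors corrected with ComBat, a batch adjustment, and these 5 *Slit1* values were below 0 as deposited (lowest -1.12) and set to 0 here. The same holds for 4 values each of *Robo3* and *Dcc* in the parallel series, so a level of 0 or a floor of either series is one after correction. Its 216 h population has no counterpart in the first series. Among the E14 libraries, WT day 4 replicate 1 held the highest of the 3 WT day 4 values for 21 of 43 tested members (48.8%) and for 35.5% of 12257 genes, while replicate 3 held it for 15 members (34.9%) and for 40.6% of genes. Its neural progenitor markers summed to 217 FPKM against 39.6 and 79.7 in the other libraries of its group. Library 3 of *Fyn* KO day 0 had an epiblast marker sum of 70.5 FPKM, against 20.4 and 18.8 in the other libraries of its group. *Snord22*, a small nucleolar RNA, was the most abundant entry in WT day 4 replicates 1 and 2 and KO day 4 replicate 2, at 255503, 158601 and 218997 FPKM. In single cells, cell 16 of 216 h had 5 members above 0.5 RPKM, where the next lowest of the 8 had 13.

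In both R1 cultures most guidance genes rose as the cells became neural, and a small group of early ones fell. Over the 22 SFEB populations 36 of the 59 tested members rose with time and 6 fell. On the log2(FPKM + 1) scale and over both series, the largest rises were in *Epha7*, *Epha3* and *Efnb3*. Over the alternatives *Ephb1*, *Dcc*, *Robo3* and *Slit1* reached slopes of 3.15, 2.93, 2.90 and 2.76, above the highest of *Efnb3* (2.37). The falls were in *Epha2*, *Unc5b*, *Robo4*, *Sema4a*, *Sema4b* and *Sema4d*. Over the 15 adherent samples 42 of 59 rose and 6 fell, the falls being in the same 6 genes. *Epha3*, *Robo4*, *Sema4a* and *Sema4d* were named after their values were seen. Of the other members, *Epha6*, *Ntn5*, *Plxnb3*, *Sema3d*, *Sema3g* and *Unc5d* are listed in neither table and *Epha5* not in the adherent one, and the rest (*Epha10*, *Plxna4*, *Unc5c* and, in SFEB, *Epha5*) were too low to be tested. With no filter on low values limma called this rest higher. Their slopes were then 0.62, 0.74, 0.61 and 0.84 in SFEB, and 0.82, 0.55 and 0.48 for the first 3 in adherent culture.

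The trend is the slope of log2(FPKM + 1) on collection time in log2 units per 100 h, fitted with limma over all tested genes and called at an adjusted p below 0.05. With 1 library a time point, its p-values measure departures from a straight line and not a spread between replicates. The fit takes successive libraries of a culture as independent. In SFEB 35.1% of the 13115 tested genes rose and 27.2% fell, and in adherent culture 35.9% of 13258 rose and 23.8% fell. The median slope of the members was 0.62 in SFEB, against 0.04 over all genes, and 0.76 in adherent culture, against 0.09. Quantile normalization moved the adherent split over all genes from 4759 higher and 3155 lower to 3720 and 4035 and the median from 0.09 to -0.02, and 36 members were then called higher and 6 lower. Of the 42 SFEB calls 11 were lost in 1 of the series alone or in both, among them the fall of *Sema4a* in the parallel series (-0.10, adjusted p = 0.772, range over the alternatives 1.46e-06 to 0.772). The slopes of 12 of the 59 members had opposite signs in the series. None of the 12 was called over both series, but *Efna3* (-0.75, adjusted p = 0.0119, range 0.0119 to 0.741), *Ephb3* (-0.57, adjusted p = 0.0233, range 0.0233 to 0.971) and *Sema3f* (-0.76, adjusted p = 0.0260, range 0.0260 to 1.00) were called lower in the first series alone. Members called higher and lower were 30 and 10 in the first series alone, 34 and 3 in the parallel series alone, 31 and 7 without the 216 h population, and 36 and 6 without the 2 h population. Over all 13115 genes these were 4001 and 3194, 3499 and 2373, 4426 and 3377, and 4614 and 3639, against 4604 and 3569 in the main fit. In adherent culture members called were 40 and 6 without 216 h and 38 and 6 without 144 and 216 h. Over all genes these were 4799 and 3065, and 4502 and 3163. In all, 35 members rose in both cultures and 6 fell in both. This overlap, the calls lost in a series and the opposite signs were not counted over all genes. They therefore do not set members apart from other genes. *Ephb4* rose in SFEB and was not called in adherent culture, while 7 members (*Efna3*, *Ephb3*, *Plxnb2*, *Plxnd1*, *Sema4f*, *Sema7a* and *Slit3*) rose in adherent culture and were not called in SFEB, though *Plxnb2* was in the parallel series alone (0.52, adjusted p = 0.0496, range 0.0496 to 0.709). Of these adherent calls, that of *Efna3* (0.51) was lost with quantile normalization (0.26, adjusted p = 0.0910) and without 144 and 216 h (0.26, adjusted p = 0.105; range 0.00164 to 0.105). That of *Ephb3* (0.46) was lost with quantile normalization (0.25, adjusted p = 0.153), without 216 h (0.34, adjusted p = 0.121) and without 144 and 216 h (0.11, adjusted p = 0.590; range 0.0110 to 0.590). The cultures are in separately normalized tables, so no difference between them was tested.

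**Figure D1:**
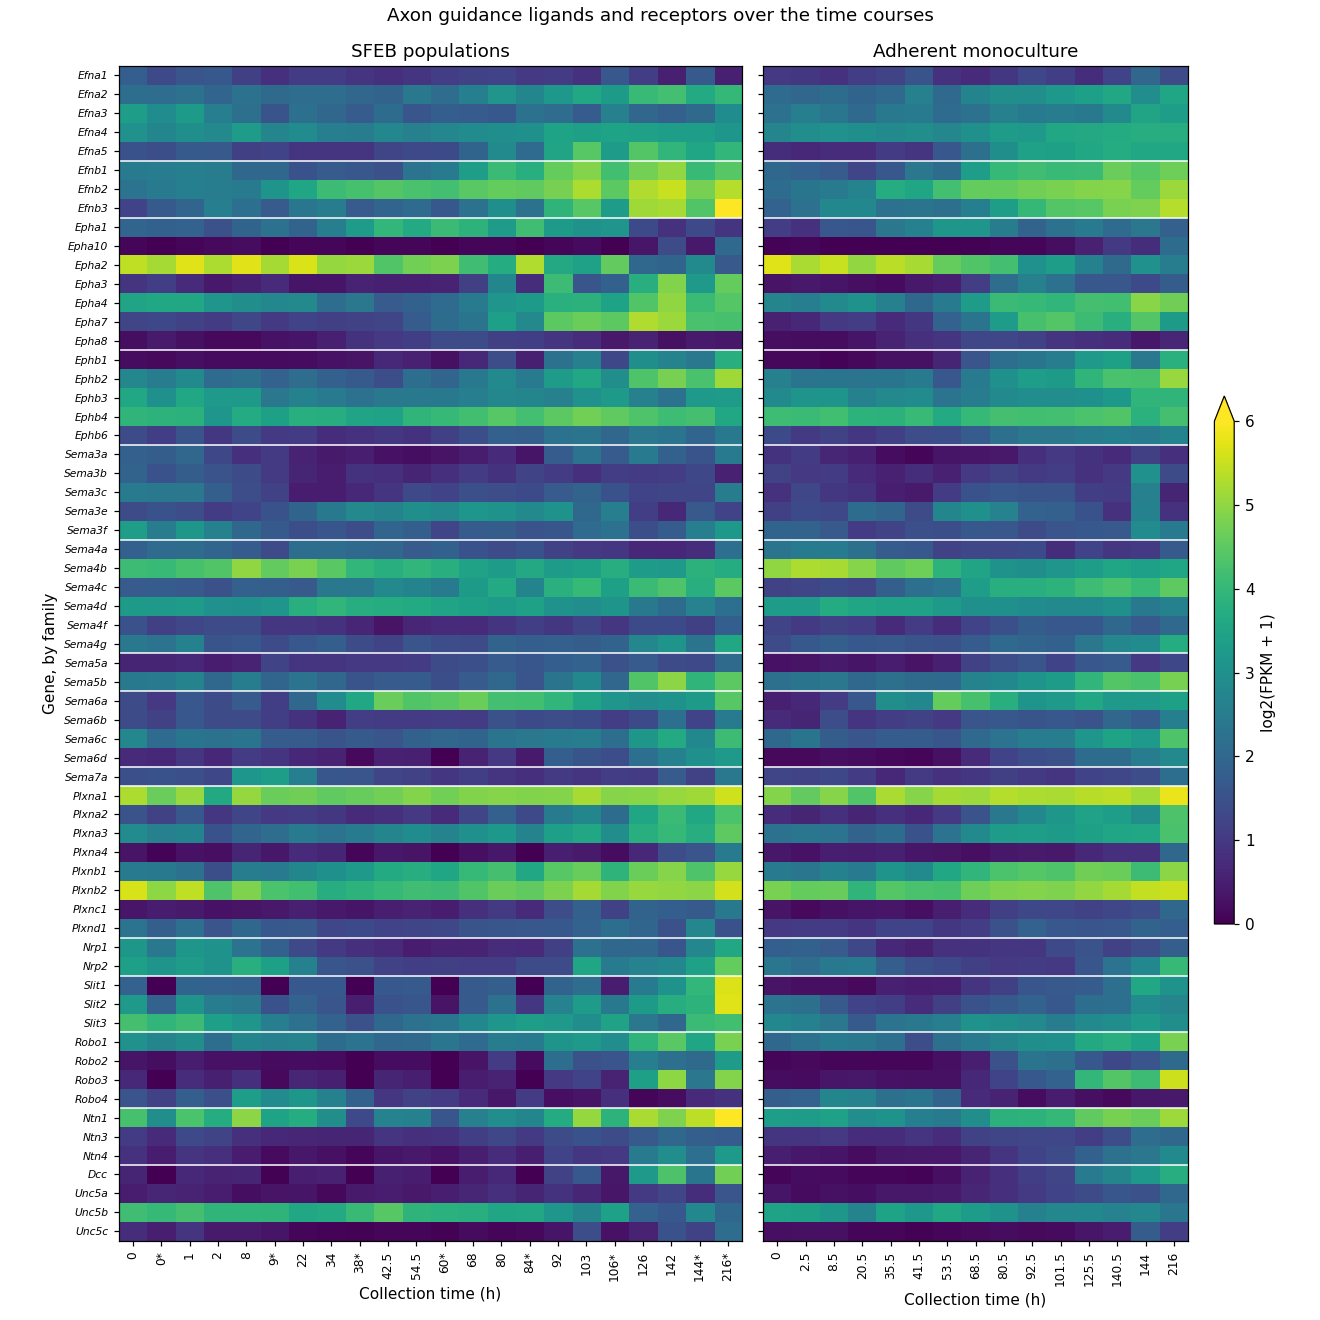
Levels of the members listed in both R1 tables, as log2(FPKM + 1), with genes by family down the side and libraries by collection hour across, 22 SFEB populations (parallel series starred) and 15 adherent samples. Most families are brightest, that is highest, at the late times, whereas *Epha2* and *Sema4b* are highest early.

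Of the 32 tested ligands 19 rose and 3 fell in SFEB, and 23 rose and 3 fell in adherent culture. Among the A ephrins, anchored to the membrane by a lipid, 3 of 5 rose in SFEB and 4 of 5 in adherent culture. *Efna4*, the most abundant A ephrin, had a lowest SFEB level of 4.84 FPKM at 38 h, a median of 6.91 and a highest of 10.2 at 106 h. Its early (up to 9 h) and late (126 h and later) populations overlapped. Its slope was 0.31 ± 0.10 (SE, adjusted p = 0.00949) in SFEB and 0.53 ± 0.08 (adjusted p = 5.84e-05) in adherent culture. The SFEB call was lost in the first series alone (0.36, adjusted p = 0.0603) and in the parallel series alone (0.32, adjusted p = 0.0709), in a range of 0.00365 to 0.0709 over all alternatives.

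*Efna5*, which repels axons in topographic maps, had the steepest slope of the A ephrins. It ran from 0.873 FPKM at 38 h through a median of 2.23 to 20.8 at 103 h in SFEB. The late populations lay at 10.8 to 19.9 FPKM and the early ones at 1.21 to 2.25, with no overlap. It rose by 1.79 ± 0.25 per 100 h (adjusted p = 2.04e-06), and by 1.86 ± 0.24 (adjusted p = 6.05e-06) in adherent culture, where it reached 12.2 FPKM at 140.5 h from 0.608 at 2.5 h.

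All 3 B ephrins, which span the membrane and can signal back into their own cell, rose in both cultures. *Efnb2*, a ligand of EphB4 in vessels and of EphA4 in the nervous system, ran from 3.84 FPKM at 0 h through a median of 19.2 to 44.2 at 142 h in SFEB. Early populations lay at 3.84 to 7.61 FPKM and late ones at 26.2 to 44.2, without overlap, and the median of the 12 populations in between was already 20.7. The slope was 1.56 ± 0.19 (adjusted p = 3.06e-07) in SFEB and 1.47 ± 0.22 (adjusted p = 3.37e-05) in adherent culture. *Efnb3*, a midline repellent, ran from 1.31 FPKM at 0 h through a median of 3.96 to 70.3 at 216 h. Its late populations, at 19.6 to 70.3, lay above all early ones, at 1.31 to 4.92. It rose by 2.12 ± 0.22 (adjusted p = 5.33e-08) in SFEB and by 1.74 ± 0.19 (adjusted p = 1.22e-06) in adherent culture, from 2.67 FPKM at 0 h to 39.3 at 216 h.

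None of the 5 tested class 3 semaphorins, the secreted class, was called in either culture over all its samples. Besides *Sema3f*, *Sema3a* in SFEB (0.57, adjusted p = 0.0540) was called without the parallel 0 h population (0.67, adjusted p = 0.0275, range 0.0275 to 0.245) and without the 2 h population (0.62, adjusted p = 0.0481). Adherent *Sema3c* (0.24, adjusted p = 0.363) was called without the 216 h sample (0.64, adjusted p = 0.0279, range 0.0279 to 0.741). *Sema3e*, a ligand of Plexin-D1, was at 0.588 FPKM at 142 h, had a median of 2.91 and reached 7.92 at 68 h in SFEB. It was high in the middle of the course, with a median of 6.11 between the early populations at 1.11 to 1.87 and the late ones at 0.588 to 2.20, which overlapped each other. A line over time does not describe such a course, and its slope of -0.05 ± 0.29 had an adjusted p of 0.898. Adherent *Sema3e* also peaked in the middle, at 7.09 FPKM at 68.5 h, with a slope of -0.12 ± 0.28 (adjusted p = 0.724). *Sema3a*, *Sema3c* and *Sema3f*, named after their values were seen, were higher in the 0 h populations than at 34 h, as the fibroblast markers were. At 0 h in the first series they stood at 2.58, 4.47 and 9.05 FPKM and at 34 h at 0.351, 0.391 and 2.05. The part of fibroblast transcripts in these early levels was not tested.

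Class 4 semaphorins, which span the membrane, moved both ways, with 2 of 6 rising and 3 falling in SFEB and 3 rising and 3 falling in adherent culture. *Sema4b* was the most abundant, from 8.49 FPKM at 142 h through a median of 13 to 31.0 at 8 h in SFEB. All 6 early populations, at 15.5 FPKM or more, lay above the late ones, at 13.4 or less. Its slope was -0.57 ± 0.14 (adjusted p = 0.000917), and -0.25 in the parallel series alone (adjusted p = 0.127, range over the alternatives 9.86e-05 to 0.127). Adherent *Sema4b* was at 30.9 to 37.2 FPKM in the 3 samples up to 8.5 h and at 9.18 to 10.7 in the 4 from 125.5 h, with a slope of -1.02 ± 0.22 (adjusted p = 0.000913). Over the alternatives this adherent slope ran from -1.63 to -1.02 and stayed called. *Sema4c*, a Plexin-B2 ligand, went the other way, from 1.81 FPKM at 2 h through a median of 5.54 to 21.3 at 216 h in SFEB. Early populations, at 1.81 to 2.55, and late ones, at 12.8 to 21.3, did not overlap. It rose by 1.60 ± 0.14 (adjusted p = 3.44e-09) in SFEB and by 1.90 ± 0.21 (adjusted p = 1.41e-06) in adherent culture, from 1.27 FPKM at 0 h to 21.7 at 216 h. The other SFEB rise of the class, in *Sema4g* (0.62, adjusted p = 0.00567), named after its values were seen, was lost in the first series alone (0.46, adjusted p = 0.191) and without the 216 h population (0.38, adjusted p = 0.129; range 0.00259 to 0.191).

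Both class 5 and all 4 class 6 semaphorins, membrane proteins as well, rose in both cultures. *Sema5b* ran from 1.73 FPKM at 60 h through a median of 3.45 to 29.8 at 142 h in SFEB. Late populations lay at 14.3 to 29.8 FPKM, above the early ones at 2.89 to 5.45, and the middle was lowest. Its slope was 1.15 ± 0.28 (adjusted p = 0.000986), and 1.44 ± 0.14 (adjusted p = 6.3e-07) in adherent culture. *Sema6a*, which binds Plexin-A2 and Plexin-A4, ran from 1.01 FPKM at 0 h through a median of 8.19 to 24.1 at 68 h. It was highest in the middle, with a median of 15.9, and its late populations, at 6.74 to 20.6, still lay above the early ones, at 1.01 to 2.28. The slope was 1.29 ± 0.36 (adjusted p = 0.0036) in SFEB and 1.21 ± 0.40 (adjusted p = 0.0165) in adherent culture, where it peaked at 23.0 FPKM at 53.5 h. Its call was lost in the parallel series alone (1.24, adjusted p = 0.0604, range 0.00267 to 0.0604) and in adherent culture with quantile normalization (0.98, adjusted p = 0.0542, range 0.00567 to 0.0542). *Sema6b*, named after its values were seen, had an SFEB slope of 0.40 ± 0.13 (adjusted p = 0.00810), lost in the first series alone (0.31, adjusted p = 0.197) and without the 216 h population (0.21, adjusted p = 0.212; range 0.00607 to 0.212).

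*Sema7a*, the lipid-anchored class 7 semaphorin, had 2 early spikes in SFEB, 9.11 FPKM at 9 h in the parallel series and 7.83 at 8 h in the first, above a median of 1.42 and a lowest level of 0.779 at 84 h. Its other early populations overlapped the late ones, at 1.06 to 4.32 FPKM. The slope was -0.27 ± 0.25 (adjusted p = 0.354), and -0.72 without the 216 h population (adjusted p = 0.0268, range 0.0268 to 0.843). In adherent culture its slope was 0.33 ± 0.12 (adjusted p = 0.0257). That call was lost without the 216 h sample (0.08, adjusted p = 0.577) and with quantile normalization (0.10, adjusted p = 0.491), and without 144 and 216 h the slope changed sign (-0.00119, adjusted p = 0.995), in a range of 0.0259 to 0.995.

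Of the Slits 2 of 3 rose in SFEB and 3 of 3 in adherent culture. *Slit1* ran from 0 FPKM, set from values below 0, in parallel libraries up to 84 h through a median of 2.40 to 50.5 at 216 h. Late populations, at 4.68 to 50.5, lay above the early ones, at 0 to 2.81. Its slope was 1.56 ± 0.38 (adjusted p = 0.000978) over both series, 0.58 (adjusted p = 0.00982) in the first series alone, 2.76 (adjusted p = 0.00205) in the parallel series alone, and 1.01 (adjusted p = 0.0462) without the 216 h population. Adherent *Slit1* rose by 1.60 ± 0.17 (adjusted p = 9.59e-07), from 0.113 FPKM at 20.5 h to 10.8 at 144 h. *Slit2*, named after its values were seen, rose by 1.28 ± 0.35 (adjusted p = 0.00319) in SFEB to 51.2 FPKM at 216 h, a call lost in the first series alone (0.59, adjusted p = 0.205) and without the 216 h population (0.80, adjusted p = 0.0962; range 0.00123 to 0.205). Adherent *Slit2* had a slope of 0.55 ± 0.21 (adjusted p = 0.0309), lost with quantile normalization (0.29, adjusted p = 0.207), without 216 h (0.49, adjusted p = 0.135) and without 144 and 216 h (0.24, adjusted p = 0.474), in a range of 0.0308 to 0.474. *Slit3*, the most abundant Slit, was highest at 0 h in SFEB (17.7 FPKM), lowest at 38 h (1.79) and had a median of 7.23. Its early populations (median 11.9) and late ones (median 10.1) overlapped above a middle median of 5.00, and the slope was 0.14 ± 0.30 (adjusted p = 0.695). Adherent *Slit3* had a slope of 0.36 ± 0.14 (adjusted p = 0.0305), lost with quantile normalization (0.09, adjusted p = 0.573) and without 144 and 216 h (0.41, adjusted p = 0.0899), in a range of 0.0293 to 0.573.

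All 3 tested netrins rose in both cultures. *Ntn1*, the floor plate attractant, ran from 1.51 FPKM at 38 h through a median of 12 to 144.0 at 216 h in SFEB. Early populations, at 6.76 to 30.3, overlapped late ones, at 27.8 to 144.0, above a middle median of 6.25. The slope of 1.3 ± 0.41 (adjusted p = 0.00802) was lost without the 216 h population (0.79, adjusted p = 0.157) and in the first series alone (0.49, adjusted p = 0.428), and was 2.18 in the parallel series (range of adjusted p 0.00468 to 0.428). In adherent culture early and late samples did not overlap, at 9.03 to 9.73 and 22.2 to 33.7 FPKM, and the slope was 1.11 ± 0.19 (adjusted p = 9.95e-05).

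Among the receptors, 17 of 27 tested rose and 3 fell in SFEB, and 19 rose and 3 fell in adherent culture. Of 6 Eph A receptors 3 rose and 1 fell in each culture. *Epha2*, a receptor for A ephrins found on embryonic and epithelial cells, was the most abundant, from 2.19 FPKM at 216 h through a median of 26.2 to 52.4 at 8 h in SFEB. Early populations lay at 35.5 to 52.4 and late ones at 2.19 to 6.18, with no overlap. It fell by 1.98 ± 0.20 per 100 h (adjusted p = 2.48e-08), and by 1.83 ± 0.20 (adjusted p = 1.62e-06) in adherent culture, from 51.2 FPKM at 0 h to 3.22 at 140.5 h. *Epha7*, which binds A ephrins in the cortex, ran from 1.03 FPKM at 9 h through a median of 2.84 to 37.7 at 126 h. All late populations, at 18.2 or more, lay above the early ones, at 1.46 or less. It rose by 2.38 ± 0.28 (adjusted p = 2.04e-07) in SFEB and by 2.01 ± 0.36 (adjusted p = 0.000183) in adherent culture, from 0.459 FPKM at 0 h to 20.2 at 144 h.

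Of 5 Eph B receptors, which bind mostly B ephrins, 4 rose in each culture. *Ephb1*, known for routing retinal axons at the optic chiasm, ran from 0.120 FPKM at 0 h through a median of 0.451 to 12.7 at 216 h in SFEB. Early populations stayed at 0.183 or less and late ones at 4.32 or more. It rose by 1.81 ± 0.17 (adjusted p = 9.13e-09) in SFEB and by 2.09 ± 0.19 (adjusted p = 2.7e-07) in adherent culture, to 13.1 FPKM at 216 h. *Ephb4*, best known as the receptor of veins, was the most abundant, from 7.87 FPKM at 2 h through a median of 14.1 to 25.5 at 103 h. Early and late populations overlapped, at 7.87 to 14.1 and 11 to 19.5. Its slope of 0.33 ± 0.13 (adjusted p = 0.0359) was lost without the 2 h population (0.27, adjusted p = 0.0767) and in the parallel series alone (0.13, adjusted p = 0.592; range 0.000226 to 0.592), and adherent *Ephb4* was not called (0.11 ± 0.09, adjusted p = 0.277).

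Plexins, the receptors of semaphorins, rose in 5 of 7 cases in SFEB and in 7 of 7 in adherent culture. *Plxna1*, the most abundant, ran from 11.5 FPKM at 2 h through a median of 28.6 to 46.7 at 216 h in SFEB. Early populations, at 11.5 to 37.4, and late ones, at 29.5 to 46.7, overlapped. The slope of 0.36 ± 0.11 (adjusted p = 0.00929) was lost without the 216 h population (0.29, adjusted p = 0.0768) and in the first series alone (0.27, adjusted p = 0.297; range 0.00122 to 0.297). Adherent *Plxna1* rose by 0.47 ± 0.09 (adjusted p = 0.000255), from 19.6 FPKM at 20.5 h to 55.5 at 216 h. *Plxna2* ran from 0.643 FPKM at 60 h through a median of 1.45 to 18.6 at 216 h. Its late populations, at 10.7 to 18.6, lay clear of the early ones, at 0.943 to 2.07. It rose by 1.68 ± 0.21 (adjusted p = 6.31e-07) in SFEB and by 1.98 ± 0.18 (adjusted p = 2.2e-07) in adherent culture.

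Neither neuropilin was called in either culture. *Nrp2* ran from 1.13 FPKM at 80 h through a median of 5.28 to 22.8 at 216 h in SFEB. Early populations (7.31 to 12.8 FPKM) and late ones (5.30 to 22.8) overlapped above a middle median of 1.62. The slope was 0.24 ± 0.39 (adjusted p = 0.603) in SFEB and 0.45 ± 0.32 (adjusted p = 0.237) in adherent culture. *Nrp1*, named after its values were seen, was at 8.06 FPKM at 0 h, 0.397 at 54.5 h and 11 at 216 h. As with *Slit3*, the early levels went together with fibroblast markers, whose part was not tested.

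Robos, the Slit receptors, split 3 rising and 1 falling in both cultures. *Robo1* ran from 3.03 FPKM at 42.5 h through a median of 5.53 to 26.7 at 216 h in SFEB. Late populations, at 10.7 to 26.7, lay above the early ones, at 3.51 to 7.21. It rose by 0.96 ± 0.19 (adjusted p = 0.000126) and by 1.24 ± 0.15 (adjusted p = 4.24e-06) in adherent culture, where it also reached 26.7 FPKM. *Robo3*, which lets commissural axons cross the midline, ran from 0 FPKM at 0 h through a median of 0.517 to 30.5 at 142 h. Early populations stayed at 0.759 or less, and late ones were at 4.20 or more. It rose by 1.96 ± 0.33 (adjusted p = 2.42e-05) in SFEB and by 2.83 ± 0.25 (adjusted p = 2.2e-07) in adherent culture, from 0.130 FPKM at 2.5 h to 45.5 at 216 h. *Robo4*, the endothelial Robo, named after its values were seen, had its highest level of 9.22 FPKM at 8 h and its lowest of 0.0607 at 126 h. It fell by 1.08 ± 0.27 (adjusted p = 0.00131) in SFEB and by 1.28 ± 0.24 (adjusted p = 0.000209) in adherent culture, as 4 of 5 endothelial markers did in SFEB and 2 of 4 in adherent culture, where 1 rose. In SFEB its slope was -1.79 in the first series alone and -0.62 in the parallel series alone, where the call was lost (adjusted p = 0.0982, range 0.000198 to 0.0982). Whether endothelial cells had a part in it was not tested.

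Of the netrin receptors *Unc5a* and *Dcc* rose and *Unc5b* fell in both cultures. *Unc5b*, which mediates repulsion, ran from 2.16 FPKM at 142 h through a median of 12.2 to 20.8 at 42.5 h in SFEB. Late populations, at 2.16 to 5.91, lay below the early ones, at 13.9 to 17.7. It fell by 1.15 ± 0.15 (adjusted p = 7.94e-07) in SFEB and by 0.46 ± 0.11 (adjusted p = 0.00242) in adherent culture, where the range was 4.16 to 11.2 FPKM. *Dcc*, the attractive receptor, ran from 0 FPKM through a median of 0.489 to 25.5 at 216 h. Early populations stayed at 0.581 or less and late ones at 4.07 or more. It rose by 1.90 ± 0.29 (adjusted p = 7.93e-06) in SFEB and by 1.94 ± 0.17 (adjusted p = 2.21e-07) in adherent culture.

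**Figure D2:**
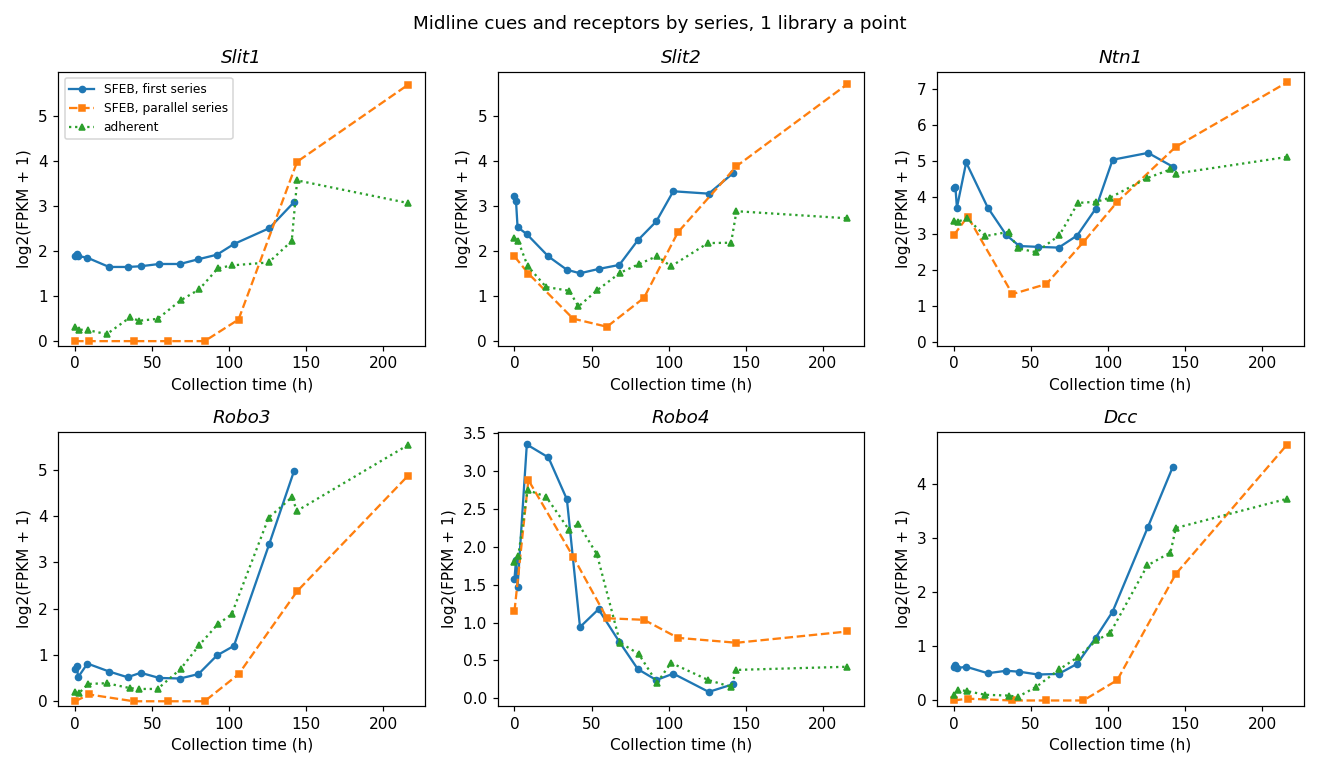
Levels of *Slit1*, *Slit2*, *Ntn1*, *Robo3*, *Robo4* and *Dcc* as log2(FPKM + 1) against hours of differentiation, 1 library a point, with a line each for the first SFEB series, the parallel series and adherent culture. *Robo3* and *Dcc* are highest at the end of all 3 lines, *Robo4* goes down, and *Slit1* starts higher in the first series than in the parallel one.

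Early and late windows were also compared directly, without a fitted line and without a test. In SFEB 28 of 59 members were 2-fold or more higher in the 4 late populations than in the 6 early ones, where 14.2% of all tested genes were, and 3 were 2-fold or more lower, where 10.8% were. The highest sample of a member fell in the late window for 39 members (38.9% of all genes), in the middle for 9 (27.9%) and in the early window for 11 (33.1%). In adherent culture 32 of 59 were 2-fold or more higher late (15.9% of all genes) and 4 lower (8.37%). The SFEB members lower late were 8 in the first series alone and 5 with a pseudocount of 0.1, alternatives chosen after seeing the data. Without the 216 h samples these were 26 higher and 4 lower in SFEB and 31 and 4 in adherent culture.

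Other genes of guidance signalling were counted in the same way. Of 55 tested intracellular effectors of guidance receptors 38 rose and 7 fell in SFEB (median slope 0.39), where 35.1% and 27.2% of all genes did (median 0.04). In adherent culture 36 rose and 4 fell (0.45), where 35.9% and 23.8% of all genes did (0.09). *Dpysl4*, *Dpysl5* and *Srgap3*, the last a Robo partner, led with slopes of 2.63, 2.48 and 2.23 in SFEB and 3.17, 2.63 and 2.61 in adherent culture. The largest SFEB falls were *Mical2* at -1.45, *Vasp* at -0.56 and *Rnd1* at -0.47. Beside the same shares, of 27 tested cues, receptors and adhesion proteins outside the member families 23 rose and 1 fell in SFEB (median 1.23), and of 26 in adherent culture 22 rose and 2 fell (1.21). *Rgma*, a repulsive guidance molecule, led in both, at 2.92 and 3.31, and *Cxcr4*, a chemokine receptor, rose by 2.52 and 2.98. Its ligand *Cxcl12* fell by 1.00 in SFEB and by 0.63 in adherent culture.

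In single cells several late genes were seen in most cells at 216 h and others in few. A member counts as seen in a cell above 0.5 RPKM, and since the 8 cells of a time are 1 sample, no test was made. At 0, 9, 38, 60, 84, 106, 144 and 216 h, 16.7, 16.7, 11.6, 18.5, 17.6, 14, 26.8 and 34.5% of the values of the 42 members were above 0.5 RPKM, while over all genes the share stayed between 44.8 and 45.2%. Without cell 16 the share of members at 216 h was 37.8%. The single cells were quantile normalized by the authors, which holds that overall share nearly fixed. The authors also kept only genes above 0.5 RPKM in at least 8 cells of all times together. A member seen mainly late is thus listed through its late cells. The part of this filter in the late rise of the share was not tested.

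Among ligands, *Slit1* was seen in 7 of 8 cells at 216 h, the exception being cell 16, with a mean of 1.13 as log10(RPKM + 1), and in 1 cell each at 9 and 144 h and 0 at the other times. *Ntn1* was seen in 5 of 8 cells at 144 h and 6 at 216 h, and in at most 3 at any earlier time. *Sema5b* was seen in 6 cells at each of these late times. *Sema6a* was seen in 0, 0, 2, 6, 5, 0, 1 and 6 cells from 0 to 216 h. At 106 h 11 of the 42 members were listed at 0 in every cell, against 0 to 5 at the other times. Genes at 0 in every cell were not counted over all genes, so this does not set members apart. The median number of genes above 0 in a cell was 7270 at 106 h, 6927 at 9 h and 6145 at 144 h. At the remaining times it was 7951.5 to 8972. *Efna5* was seen in 4 cells at 216 h and in at most 1 before. Other genes that rose in the populations were seen in few cells at 216 h, *Efnb2* in 2, *Efnb1* and *Ntn4* in 1 each, the last 2 named after their values were seen.

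Among receptors, *Epha2* was seen in 7, 6, 6, 4, 7, 4, 2 and 1 cells of 8 from 0 to 216 h, with means of 0.950 at 0 h and 0.120 at 216 h as log10(RPKM + 1). The single cell at 216 h was cell 16, and without it *Epha2* was seen in 0 of 7. *Ephb1* was seen in 4 cells at 216 h and in 0 at the 7 earlier times. *Plxna1* was broadly seen, in 2 to 7 cells at each time, and *Robo1* in 5 cells at 9 h but in 0 to 3 at the others. *Plxnb1* was seen in 8 cells at 144 h and 7 at 216 h, and in 4 or fewer before. *Epha7*, the steepest rise over both series of SFEB populations, was seen in 1 cell at 216 h, *Plxna2* in 2 and *Unc5a*, named after its values were seen, in 0. Of the 24 population risers listed for single cells, 12 were seen in 4 or more cells at 216 h and 8 in 2 or fewer. They are given without the same counts over all genes, so they do not set members apart from other genes.

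**Figure D3:**
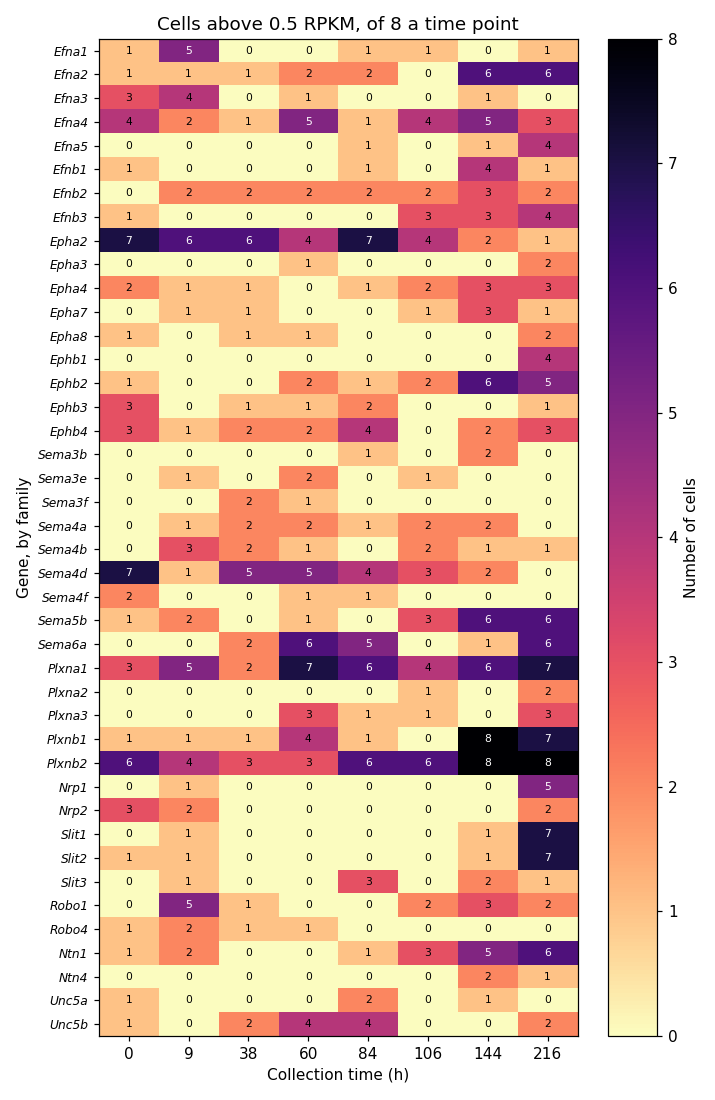
Number of the 8 cells at each of 8 times in which each of the 42 members was above 0.5 RPKM, with genes down the side and collection hours across. *Epha2* is seen in most cells early, whereas *Slit1*, *Slit2*, *Sema5b* and *Ntn1* are seen in most cells only at the late times.

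In the E14 libraries the targeted gene was read before the members. *Fyn* was at 3.21, 2.74 and 4.00 FPKM in WT day 0, 9.44, 4.54 and 6.76 in WT day 4, 0.598, 0.598 and 1.10 in KO day 0 and 1.19, 1.13 and 1.58 in KO day 4. All KO libraries lay below all WT libraries of the same day. The difference was -1.74 ± 0.24 on the log2 scale at day 4 (limma, adjusted p = 0.0193) and -1.29 ± 0.24 at day 0, which missed the threshold (adjusted p = 0.0601).

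In WT cells *Efnb1*, *Efnb2*, *Plxnb1* and the semaphorins *Sema3e*, *Sema4c* and *Sema6a* rose by day 4, while *Epha4* and the semaphorins *Sema3b*, *Sema4f* and *Sema6c* fell. *Efnb2*, *Sema4c*, *Sema6a* and *Sema3e* rose the most, each by more than 2 log2 units. Of 43 tested members 10 rose, where 15.5% of 12257 genes did, and 5 fell, where 10.3% did. Quantile normalization moved the split over all genes from 1904 higher and 1262 lower to 1576 and 1532. With median-ratio scaling it was 1632 and 1586. The median member changed by 0.31 on the log2 scale and the median gene by 0.08. Of 25 ligands 7 rose and 3 fell, and of 18 receptors 3 rose and 2 fell. Leaving out each library in turn gave 6 to 12 members higher and 3 to 6 lower, 6 higher coming without WT day 0 replicate 2 and 3 lower without WT day 4 replicate 2. Over all genes 1106 were higher and 725 lower in the first of these fits, and 1678 and 1006 in the second. Without WT day 4 replicate 1 members were 9 and 5, and all genes 1403 and 842. Of the 15 calls 9 held in all 12 fits without a library. The other 26 members were below 1 FPKM in all but at most 2 libraries and were not tested, among them *Dcc*, *Robo3*, *Slit1*, *Ephb1* and *Nrp1*. *Robo3* stayed at or below 0.0826 FPKM and *Dcc* at or below 0.583 in every library.

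Among ligands, *Efnb2* was at 0.506, 0.645 and 0.565 FPKM at WT day 0 and at 26.2, 10.3 and 13.9 at WT day 4. Every day 4 library lay far above every day 0 library. It rose by 3.40 ± 0.31 on the log2(FPKM + 1) scale (adjusted p = 0.000108), a scale that understates changes of low genes. *Efnb1*, an X-linked B ephrin, was at 1.05, 0.982 and 0.699 FPKM at day 0 and at 17.9, 5.45 and 7.02 at day 4. The groups did not overlap, and replicate 1 was the highest of day 4. The rise was 2.38 ± 0.39 (adjusted p = 0.00196), and 1.92 (adjusted p = 0.0044) without that library. *Efna5* was at 0.538, 0.143 and 0.204 FPKM at day 0 and at 12.5, 1.41 and 2.45 at day 4. Again replicate 1 was the highest, by a wide margin, though the groups did not overlap. Its rise of 1.91 ± 0.56 (adjusted p = 0.0276) became 1.17 (adjusted p = 0.0745) without that library, and the call was also lost without WT day 0 replicate 2 (adjusted p = 0.0857), without WT day 0 replicate 3 (0.0764), with quantile normalization (0.0554) and with a fit on the compared groups alone (0.0515), over a range of 0.0132 to 0.0857.

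*Sema4c* was at 0.877, 0.515 and 0.418 FPKM at WT day 0 and at 14.4, 7.38 and 6.46 at day 4. The groups stood well apart. It rose by 2.63 ± 0.28 (adjusted p = 0.000209). *Sema6a* was at 0.185, 0.370 and 0.421 FPKM at day 0 and at 3.73, 4.26 and 13.4 at day 4, here with replicate 3 the highest. It rose by 2.43 ± 0.39 (adjusted p = 0.00172). *Sema3e* was at 0.0138, 0.0839 and 0.0462 FPKM at day 0 and at 3.95, 4.78 and 4.95 at day 4. It was close to 0 in every day 0 library and even across day 4, with a rise of 2.40 ± 0.22 (adjusted p = 0.000108). *Sema4f* was at 2.77, 4.12 and 5.32 FPKM at day 0 and at 0.439, 0.565 and 1.71 at day 4. All day 4 libraries were lower, and it fell by 1.44 ± 0.32 (adjusted p = 0.00827).

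Among receptors, *Plxnb1*, which binds Sema4D, was at 1.53, 0.289 and 0.414 FPKM at WT day 0 and at 9.14, 5.17 and 6.60 at day 4. The groups did not overlap, and it rose by 2.23 ± 0.40 (adjusted p = 0.00277). *Epha4*, which binds ephrins of both classes, was at 30.6, 52.3 and 39.9 FPKM at day 0 and at 25.8, 5.05 and 4.63 at day 4. Replicate 1 of day 4 stayed near the day 0 level, and the groups still did not overlap. It fell by 2.08 ± 0.53 (adjusted p = 0.0149), or by 2.81 (adjusted p = 0.00107) without that library. The call was lost without WT day 0 replicate 2 (-1.89, adjusted p = 0.0597), WT day 4 replicate 2 (-1.74, adjusted p = 0.0526) or WT day 4 replicate 3 (-1.69, adjusted p = 0.0575), in a range of 0.00107 to 0.0597. *Epha1* was at 0.882, 0.106 and 0.170 FPKM at day 0 and at 0.785, 2.1 and 8.47 at day 4. The groups overlapped, since replicate 1 of day 4 was below replicate 1 of day 0. Its rise of 1.48 ± 0.50 (adjusted p = 0.0488) was called in 3 of the 12 fits without a library, and the value was 2.01 (adjusted p = 0.0139) without WT day 4 replicate 1 and 0.81 (adjusted p = 0.146) without replicate 3. It was also lost with median-ratio scaling (0.0515), with no filter (0.0818) and with quantile normalization (0.0766), in a range of 0.0139 to 0.146. *Sema3b* (-1.28) and *Sema6c* (-0.86) also fell, in 12 of the 12 fits without a library, and *Ephb4* (1.28) also rose, in all but that without WT day 0 replicate 2 (1.15, adjusted p = 0.0535, range 0.00235 to 0.0535). The rise of *Efnb3* (1.28, adjusted p = 0.0446) was called in 4 of these 12 fits and was 0.84 (adjusted p = 0.160) without WT day 4 replicate 1 and 1.03 (adjusted p = 0.130) without WT day 0 replicate 1. It was not called with the replicate number as a block (adjusted p = 0.0592), with a range of 0.0301 to 0.160 over all alternatives. The fall of *Plxnb2* (-0.80, adjusted p = 0.0475) was called in 5 of the 12 fits, was -0.59 (adjusted p = 0.156) without WT day 4 replicate 2, and was not called with the block either (adjusted p = 0.0513, range 0.0244 to 0.156). With the block *Sema4b* (-0.81, adjusted p = 0.0186, against 0.0595 without it, range 0.0186 to 0.203) and *Plxnd1* (0.77, adjusted p = 0.0263, against 0.0687, range 0.0263 to 0.185) were called in WT instead, which left the counts at 10 higher and 5 lower.

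Markers moved with these members. Epiblast markers summed to 16, 19.2 and 26.0 FPKM at WT day 0 and to 211, 200.4 and 407 at day 4, and 6 of 6 rose. Of 6 tested neural progenitor markers 5 rose, and of 8 pluripotency markers 7 fell. Among the neuron markers 2 of 6 rose and 1 fell. Of the 3 tested fibroblast markers 1 rose, 1 of 2 endothelial markers fell, 1 of 5 mesoderm and endoderm markers rose and 2 of 4 neural crest and glia markers fell.

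**Figure D4:**
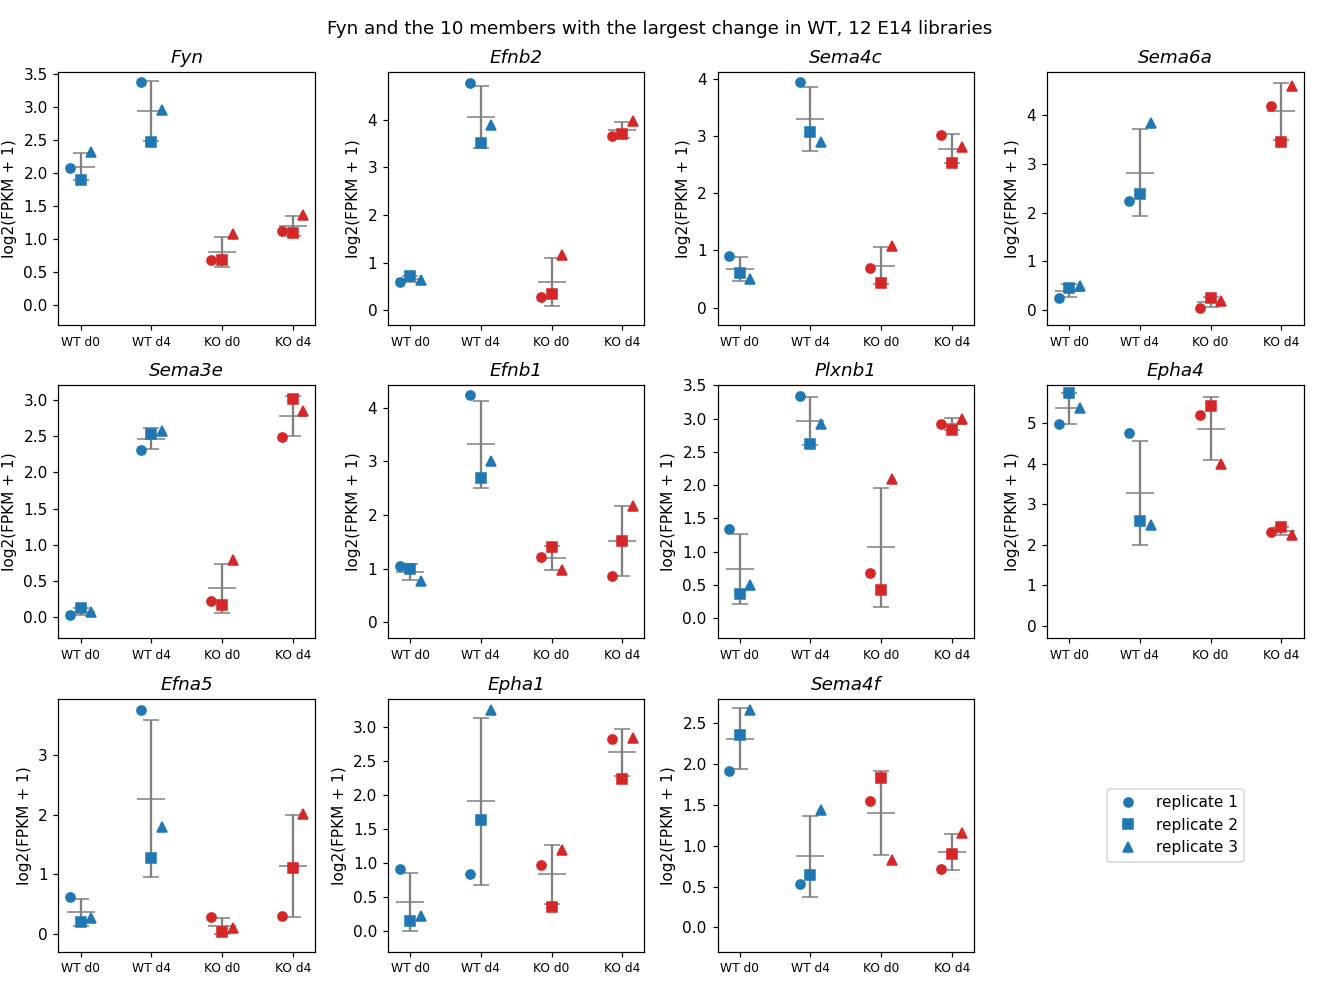
Levels of *Fyn* and 10 members in the 12 E14 libraries as log2(FPKM + 1), with a point for each library in the 4 groups and the mean ± SD of the 3 log2 values in grey. *Fyn* is lower in KO than in WT on both days, and *Efnb1* at day 4 is lower in KO than in WT.

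In the *Fyn* KO *Sema6a*, *Efnb2*, *Sema3e* and *Sema4c* rose by day 4, and *Epha4* and *Ntn1* fell by more than 2 log2 units each. Of 43 tested members 7 rose, where 11.8% of all genes did, and 4 fell, where 7.56% did. Quantile normalization moved the split over all genes from 1443 higher and 927 lower to 1229 and 1178. With median-ratio scaling it was 1378 and 1130. The median member changed by 0.19 and the median gene by 0.05. Leaving out each library gave 5 to 10 higher and 1 to 6 lower, with 1 lower without KO day 0 replicate 1, KO day 0 replicate 2 or KO day 4 replicate 1, and 2 lower without KO day 4 replicate 3. In these fits, in that order, 495, 405, 607 and 501 of all genes were lower. Without KO day 0 replicate 3 members were 10 higher and 3 lower, and all genes 1857 and 1206. The lower members were also 2 with no filter, 2 with a fit on the compared groups alone and 8 with quantile normalization. In these settings 805, 677 and 1178 of all genes were lower. Of the 11 calls 6 held in all 12 fits without a library. Of 8 pluripotency markers 7 fell, 6 of 6 epiblast markers rose, and 1 of 6 neural progenitor, 1 of 3 fibroblast and 1 of 4 neural crest and glia markers rose. Of 6 neuron markers 1 rose and 1 fell, and limma called 0 of 2 endothelial and 0 of 5 mesoderm and endoderm markers, with 0 and 2 at an unadjusted p below 0.05.

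*Sema6a* was at 0.0356, 0.193 and 0.145 FPKM at KO day 0 and at 17.4, 9.95 and 23.2 at KO day 4. All 3 day 4 libraries were far above day 0, with a rise of 3.92 ± 0.39 (adjusted p = 0.000219). *Efnb2* was at 0.210, 0.266 and 1.25 FPKM and at 11.7, 12 and 14.7, and rose by 3.18 ± 0.31 (adjusted p = 0.000203). *Epha4* was at 35.4, 41.4 and 14.8 FPKM at day 0 and at 4.00, 4.46 and 3.75 at day 4. Replicate 3 of day 0 was the lowest of its group and still above day 4, and *Epha4* fell by 2.52 ± 0.53 (adjusted p = 0.00808). *Sema3e* was at 0.164, 0.124 and 0.724 FPKM and at 4.61, 7.11 and 6.20, and rose by 2.39 ± 0.22 (adjusted p = 0.000158). *Sema4c* was at 0.616, 0.349 and 1.12 FPKM and at 7.09, 4.74 and 5.96, and rose by 2.04 ± 0.28 (adjusted p = 0.00101). In each of these the days did not overlap.

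*Plxnb1* was at 0.610, 0.343 and 3.26 FPKM at KO day 0 and at 6.60, 6.11 and 7 at KO day 4. The days did not overlap, and it rose by 1.85 ± 0.40 (adjusted p = 0.00896). *Ntn1* was at 24.9, 18.5 and 6.88 FPKM and at 1.76, 3.71 and 2.32. It was lower in every day 4 library and fell by 2.17 ± 0.64 (adjusted p = 0.0355), a call that held in 7 of the 12 fits without a library. It was lost without KO day 0 replicate 1 (-1.82, adjusted p = 0.127) or 2 (-2.03, adjusted p = 0.117), without KO day 4 replicate 1 (adjusted p = 0.0979), 2 (-2.39, adjusted p = 0.0541) or 3 (-2.13, adjusted p = 0.0989), and with no filter (adjusted p = 0.0684), in a range of 0.0136 to 0.127. *Sema3f* (0.69) also rose, called in 8 of the 12 fits, with 0.60 (adjusted p = 0.0910) without KO day 4 replicate 3 and 0.34 (adjusted p = 0.247) with quantile normalization, in a range of 0.00783 to 0.247. *Sema4b* (-0.98) also fell, called in 7 of the fits, with -0.65 (adjusted p = 0.101, range 0.0105 to 0.108) without KO day 4 replicate 1. *Plxnb2* (-0.97) fell too, called in 8, with -0.72 (adjusted p = 0.0926, range 0.0166 to 0.119) without that library. *Epha1* was at 0.963, 0.274 and 1.27 FPKM and at 6.09, 3.69 and 6.09, without overlap. Its rise of 1.79 ± 0.50 (adjusted p = 0.0278) lost its call without KO day 0 replicate 1 (adjusted p = 0.0680), KO day 0 replicate 2 (0.113), KO day 4 replicate 1 (0.0775) or KO day 4 replicate 3 (0.0933), and with no filter (0.0536), in a range of 0.00591 to 0.113. *Efnb1* was at 1.32, 1.65 and 0.957 FPKM at day 0 and at 0.807, 1.85 and 3.48 at day 4. The days overlapped, and the change of 0.31 ± 0.39 was not called (adjusted p = 0.609).

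No member was called between *Fyn* KO and WT on either day, in fits that also left *Fyn* itself uncalled at day 0. At day 4 limma called 0 of 43 members higher and 0 lower, where 0.00816% of all genes were higher and 0.0653% lower, and 4 members had an unadjusted p below 0.05, as had 1483 of all 12257 genes. The median member differed by -0.19 and the median gene by -0.03. At day 0 it called 0 higher and 0 lower, where 0.0408% and 0.131% of all genes were, with 2 members and 1785 genes at an unadjusted p below 0.05. The fits without a library gave 0 as well. With no filter on low values 1 member was lower at day 4, *Sema6d* (-0.36, adjusted p = 0.0488), named after its values were seen. *Sema6d* was at 0.433, 0.223 and 0.347 FPKM in WT day 4 and at 0.0266, 0.0156 and 0.0828 in KO day 4.

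The members with an unadjusted p below 0.05 are given by value, all named after their values were seen. At day 4 *Efnb1* was at 17.9, 5.45 and 7.02 FPKM in WT and 0.807, 1.85 and 3.48 in KO. Every KO library was below every WT library, and the difference was -1.80 ± 0.39 (limma, adjusted p = 0.115), or -1.34 (adjusted p = 0.217) without WT day 4 replicate 1. Its adjusted p ran from 0.0836 to 0.339 over all alternatives. Neural progenitor markers summed to 217, 39.6 and 79.7 FPKM in the same WT libraries and to 36.5, 32.5 and 69.5 in KO, and mesoderm and endoderm markers to 4.39, 25.2 and 35.1 in WT and to 2.90, 1.37 and 7.33 in KO. Neither list had a called gene, but 2 of 6 progenitor and 3 of 5 mesoderm and endoderm markers had an unadjusted p below 0.05, as had 1 of 6 epiblast markers. The part of these markers in the *Efnb1* values was not tested. *Sema6a* was at 3.73, 4.26 and 13.4 FPKM in WT and 17.4, 9.95 and 23.2 in KO. These groups overlapped, though KO was higher in 3 of the 3 pairs of equal replicate number, at a difference of 1.26 ± 0.39 (adjusted p = 0.235), or 0.96 (adjusted p = 0.522, range 0.0645 to 0.522) without WT day 4 replicate 1. *Plxna2* was at 9.04, 1.09 and 0.894 FPKM in WT and 0.267, 0.469 and 0.806 in KO. Replicate 1 of WT was far above the others, and the difference of -1.19 ± 0.51 (adjusted p = 0.382) was -0.41 (adjusted p = 0.722, range 0.225 to 0.722) without it. *Plxna1* was at 17.4, 26.7 and 26.1 FPKM in WT and 12.2, 17.7 and 17.5 in KO. The groups overlapped and KO was lower in 3 of the 3 pairs, with a difference of -0.54 ± 0.23 (adjusted p = 0.381). With the replicate number as a block neither *Sema6a* nor *Plxna1* was called (adjusted p = 0.147 and 0.0995).

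At day 0 *Sema3b* was at 1.78, 2.36 and 3.23 FPKM in WT and 0.968, 1.25 and 0.562 in KO. *Sema4f* was at 2.77, 4.12 and 5.32 FPKM in WT and 1.92, 2.55 and 0.774 in KO. In both genes every KO library was below every WT library. The differences were -0.84 ± 0.27 (adjusted p = 0.19) and -0.91 ± 0.32 (adjusted p = 0.223). Without KO day 0 replicate 3, the lowest library for both, they were -0.69 (adjusted p = 0.304) and -0.62 (adjusted p = 0.385). Markers at an unadjusted p below 0.05 were 2 of 6 neuron, 1 of 8 pluripotency, 1 of 6 epiblast, 1 of 3 fibroblast and 1 of 4 neural crest and glia markers. The part of these markers in the 2 genes was not tested.

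Whether the day 4 change differed between KO and WT was tested as an interaction. limma called 0 of 43 members in either direction, as it called 0% higher and 0% lower of all genes, with 4 members and 537 genes at an unadjusted p below 0.05. *Efnb1* had a difference of changes of -2.07 ± 0.56 (adjusted p = 0.997). *Sema6a* had 1.49 ± 0.55, *Sema3b* 1.07 ± 0.39 and *Nrp2* -1.16 ± 0.49, each also at an adjusted p of 0.997. Without WT day 4 replicate 1 the value of *Nrp2* was -0.73, and that of *Efnb1* was -1.60. So the *Efnb1* rise called in WT and not in KO was not shown to differ between them.

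Of 48 tested effectors 9 rose and 5 fell in WT by day 4, where 15.5% and 10.3% of all genes did, and 6 rose and 6 fell in KO, where 11.8% and 7.56% did. *Crmp1*, a mediator of Sema3A signals, was at 0.678, 0.132 and 0.775 FPKM at WT day 0 and 30.2, 12.9 and 35 at WT day 4, and rose by 4.06 (adjusted p = 0.0062). Of 20 other cues, beside the same shares, 9 rose and 0 fell in WT and 5 rose and 0 fell in KO. *Cxcl12* was at 0.0944, 0.0992 and 0.0320 FPKM at WT day 0 and at 6.92, 8.53 and 19.2 at day 4, a rise of 3.42. Between KO and WT, limma called 0 effectors higher and 1 lower at day 4, *Fyn* itself, and 0 at day 0 and 0 in the interaction, with 6, 6 and 3 at an unadjusted p below 0.05. It called 0 of the other cues, with 4, 1 and 2.

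By position, 5 pairs of neighbouring members lie within 200 kb of each other on the mouse build NCBIM37. *Robo4* and *Robo3* are the closest, on chromosome 9 and on opposite strands (chr9:37209482-37221608, plus, and chr9:37223254-37240760, minus). The start of the second lies 1646 positions after the end of the first. Their trends were opposite in both cultures. *Efna1*, *Efna3* and *Efna4* lie together on chromosome 3 at distances, counted the same way, of 32757 and 10425 positions, *Ephb2* and *Epha8* on chromosome 4 at 93431, and *Sema3b* and *Sema3f* on chromosome 9 at 72273.

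RefSeq promoter windows, the 250 bases upstream of a start on GRCm38.p6, were found for 59 of the 69 members, 75 windows in all. They were searched on both strands for CAGCTG and CAGATG, forms of the E-box bound by proneural factors. CAGCTG was in 12 member windows (16%) and in 13% of all 32851 windows, and CAGATG in 5 (6.67%) and in 14.4%. The GC content was 63.3% in member windows and 53.2% in all. The windows of *Robo3* and *Ephb1*, 2 of the steepest risers in adherent culture, and of *Epha2*, the steepest fall, hold neither word. They are at chr9:37433176-37433425 (minus strand), chr9:102354694-102354943 (minus) and chr4:141300971-141301220 (plus) and are shown 5′ to 3′ so that risers and the fall can be read side by side.
Robo3: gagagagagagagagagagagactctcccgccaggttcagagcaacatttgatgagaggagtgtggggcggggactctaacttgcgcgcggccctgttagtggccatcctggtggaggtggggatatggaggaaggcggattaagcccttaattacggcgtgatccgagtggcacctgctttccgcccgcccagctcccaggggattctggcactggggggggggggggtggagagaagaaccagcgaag
Ephb1: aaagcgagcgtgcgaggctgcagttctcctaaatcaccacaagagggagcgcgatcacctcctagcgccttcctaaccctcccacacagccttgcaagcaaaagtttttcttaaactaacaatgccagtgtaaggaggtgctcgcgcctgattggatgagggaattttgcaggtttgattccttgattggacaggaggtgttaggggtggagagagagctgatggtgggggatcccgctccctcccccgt
Epha2: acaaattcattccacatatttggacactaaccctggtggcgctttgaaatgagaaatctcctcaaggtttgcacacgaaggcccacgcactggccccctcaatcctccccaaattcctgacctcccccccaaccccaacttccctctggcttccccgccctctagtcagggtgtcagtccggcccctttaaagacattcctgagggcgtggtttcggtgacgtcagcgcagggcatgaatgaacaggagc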

How the data were processed

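mRNA was sequenced in 22 SFEB populations, 64 single cells, 15 adherent samples and 12 E14 libraries. The submitters' processing notes name TopHat2 2.0.8b and Cufflinks 2.1.1, with mm9 and, for E14, mm10, while the study's methods name other versions. The adherent and E14 FPKM values were deposited by the authors with no batch correction stated. The authors corrected the deposited population FPKM values with ComBat, which left 1256 of them below 0, set here to 0. For single cells the deposited values are log10(RPKM + 1), quantile normalized between cells. The depth of single libraries could not be recovered from the values.

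FPKM values were analysed as log2(FPKM + 1), a pseudocount of 1, with limma 3.58.1 in R 4.3.3, trended empirical Bayes and Benjamini-Hochberg adjustment over all tested genes, two-sided. E14 genes had at least 1 FPKM in 3 or more libraries and were fitted in 1 model of 4 groups. SFEB genes were above 0.5 FPKM in 8 or more populations and adherent genes in 5 or more samples. Descriptions used Python 3.11.15, numpy 2.4.6, pandas 2.3.3 and matplotlib 3.10.9. The procedures were tested on simulated data. Nothing states that E14 replicates came from separate cultures, so p-values measure the spread between libraries, which may be technical.

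The members and gene lists were chosen with earlier results of these data known. Genes named are, per family, the member with the highest SFEB mean and the called member with the largest SFEB slope, the 10 largest called changes of WT day 4 against day 0, *Fyn*, and members called between KO and WT. From each other guidance list the largest called changes were named. Others were named after their values were seen.

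Whether equal replicate numbers pair E14 libraries was checked by correlating deviations from group means. Libraries of the same number gave r of 0.199, 0.220 and 0.224 between WT days and 0.136, 0.258 and 0.240 between KO and WT at day 4. Unequal numbers gave at most -0.0111 and -0.0272 there. Equal numbers gave 0.0239, 0.0899 and 0.00112 between KO days and 0.0628, 0.339 and -0.115 between genotypes at day 0, where an unequal pair reached 0.253. Deviations within a group cancel out, so these values are not independent and do not settle the pairing. The main fits took the libraries as unpaired. Alternatives covered the pseudocount, filters, scaling, a replicate block, the samples in each fit and leaving out each library.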

Additional observations from a re-analysis of the deposited data

Results flagged for a closer look

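Single cells of the same time were compared for the number of genes above 0 and of members above 0.5 RPKM and for the summed RPKM of the members, 24 groups of 8 cells. The rule assumes that chance alone would single out about 1 in 20. That rate was not measured here, and the 3 measures of a time come from the same cells. In 7 of them the highest or lowest cell lay far from the other 7. Cell 06 of 0 h had 10437 genes above 0 (next 9120), and cell 05 of 60 h had 10292 (next 9211). Cell 02 of 38 h had 3 members above 0.5 RPKM (next 5), and cell 16 of 216 h had 5 (next 13). The summed member level was 201 RPKM in cell 02 of 0 h (next 70.8), 308 in cell 04 of 9 h (next 136) and 1089.6 in cell 07 of 216 h (next 592).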

How the results depend on the processing

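Among the genes chosen by the naming rule and those named from KO against WT, 792 values under the alternatives kept their direction and their side of the threshold, 40 lost the threshold, 1 gained it and 12 changed sign. Over all tested members these were 4174, 104, 48 and 203, and of all 203 only 1, that of adherent *Sema7a*, which is also among the 12, belongs to a result called over all samples. *Nrp2* in SFEB was -0.54 in the first series alone and -0.36 without 216 h, and in adherent culture -0.22 without 216 h and -0.60 without 144 and 216 h. *Sema3e* was 0.14 and 0.21 in the same SFEB fits and 0.23 and 0.0495 in the same adherent ones. *Slit3* in SFEB was -0.73 in the first series alone and -0.20 without 216 h, adherent *Sema7a* was -0.00119 without 144 and 216 h, and *Efnb1* in KO day 4 against day 0 was -0.0152 without KO day 4 replicate 3 (0.64 without replicate 1). The cause was not tested, beyond these fits resting on fewer samples.

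Of the counts, 211 stayed within 1.5 times the main value and 22 did not. Leaving out each E14 library gave 6 to 12 members higher and 3 to 6 lower in WT, 5 to 10 and 1 to 6 in KO, and 0 between genotypes and for the interaction. KO members lower by day 4 were 2 with a fit on the compared groups alone, 2 with no filter and 8 with quantile normalization, where 677, 805 and 1178 of all genes were. With no filter 1 member was lower in KO than in WT at day 4, as were 18 of all genes. SFEB members lower over time were 10 in the first series alone and 3 in the parallel one, where 3194 and 2373 of all genes were. In the SFEB windows members lower were 5 with a pseudocount of 0.1 and 8 in the first series alone. These last 2 alternatives were chosen after seeing the data, as was leaving out the 2 h population. Members positive in 4 or more cells at 0, 9, 38, 60, 84, 106, 144 and 216 h were 25, 13, 18, 27, 21, 15, 26 and 29 above 0 and 4, 6, 2, 7, 7, 4, 9 and 14 above 0.5 RPKM. With a replicate block, the pairing of equal numbers, WT had 10 members higher and 5 lower and KO 7 and 5, with 0 between genotypes, while the WT calls of *Efnb3* (adjusted p = 0.0592) and *Plxnb2* (0.0513) were lost. *Sema4b* (-0.81, adjusted p = 0.0186) and *Plxnd1* (0.77, adjusted p = 0.0263) were newly called in WT, and *Sema6c* in KO (-0.57, adjusted p = 0.0334, range over the alternatives 0.00728 to 0.182), and no other member's call changed. With 3 libraries a group and 1 library a time point, changes could be missed, between genotypes also large ones. The *Fyn* difference at day 0 (-1.29, limma adjusted p = 0.0601) was not called, though the groups did not overlap. The same holds for *Efnb1* between KO and WT at day 4 (-1.80, limma adjusted p = 0.115). So 0 members called between genotypes does not show that their levels were alike.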
